A study of Mus musculus with 6 samples.

Results

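The SIBLING genes (small integrin-binding ligand, N-linked glycoproteins) encode secreted proteins of bone and tooth matrix. The members *Ibsp*, *Spp1*, *Dmp1*, *Mepe* and *Dspp* were chosen by gene symbol, and all 5 were listed among the 23284 genes of every sample. The RNA came from ECFP+ osteoblasts (OBs) sorted from bone that formed under the skin of adult male *Col2.3*-ECFP mice around a collagen sponge soaked with BMP-2, a growth factor that induces bone. ECFP, a cyan fluorescent protein, is driven in these mice by the type I collagen promoter, so the sort took cells with an active *Col1a1* promoter, while CD45+ blood cells and cells stained by a dead-cell dye were removed by gating. The groups were day 10 (n = 3) and day 14 (n = 3) after implantation, from mice of the same reporter line with the same BMP-2 implant, and the comparison asks which genes changed while OBs altered their shape and the matrix mineralized. The tissue was treated with trypsin and then with collagenase, 1 time for day 10 and 2 times for day 14, so day and digestion cannot be told apart. The sample titles place 3 samples on day 14, whereas their descriptions give day 14 for replicate 1, day 15 for replicate 2 and day 16 for replicate 3. The titles call the samples biological replicates and do not say how many animals went into each.

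SIBLING proteins carry an Arg-Gly-Asp motif that integrins bind, and many phosphorylated serines and acidic residues that bind calcium. In bone they are secreted by OBs and osteocytes onto type I collagen, where they take part in starting or restraining the growth of mineral crystals. Bone sialoprotein (*Ibsp*) promotes mineral nucleation, osteopontin (*Spp1*) restrains crystal growth and anchors cells, dentin matrix protein 1 (*Dmp1*) and matrix extracellular phosphoglycoprotein (*Mepe*) mark OBs that are turning into osteocytes and take part in phosphate balance, and dentin sialophosphoprotein (*Dspp*) is mainly a product of the odontoblasts of teeth. Levels are given as FPKM, read counts divided by the exon length of the gene and by the mapped reads of the library, so that they may be compared between genes.

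The 5 genes lie next to each other on the + strand of mouse chromosome 5 (GRCm38, GENCODE vM21), over 270.3 kb, in the order *Dspp* (chr5:104170712-104180127), *Dmp1* (chr5:104202613-104214102), *Ibsp* (chr5:104299171-104311469), *Mepe* (chr5:104325329-104338611) and *Spp1* (chr5:104435118-104441050). Their transcripts have at most 5, 6, 7, 3 and 8 exons in that order. The gaps between neighbours were 22.48, 85.07, 13.86 and 96.51 kb. *Spp1* shares its strand and part of its span with *Gm42793*, an unclassified transcript, and the others overlap no annotated gene.

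Start-site windows of RefSeq (GRCm38.p6, 250 bases before to 50 bases after the start, all on the + strand) were at hand for *Ibsp*, *Spp1*, *Dmp1* and *Mepe*, 6 windows in all, and the 80 bases around the letters they share are printed because 4 of the 6 windows hold the same pair of motifs at the same distance. Capitals mark ATTGG, the CCAAT box read on the other strand, and TTTAAA or TTTATA, which resemble a TATA box. The stretch of *Ibsp* is chr5:104299193-104299272, that of *Spp1* chr5:104435025-104435104, that of *Dmp1* chr5:104202520-104202599 and that of *Mepe* chr5:104325268-104325347.
*Ibsp*: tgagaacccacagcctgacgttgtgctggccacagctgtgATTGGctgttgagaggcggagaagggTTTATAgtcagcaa
*Spp1*: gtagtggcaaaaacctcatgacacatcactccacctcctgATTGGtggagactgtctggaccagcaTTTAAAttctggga
*Dmp1*: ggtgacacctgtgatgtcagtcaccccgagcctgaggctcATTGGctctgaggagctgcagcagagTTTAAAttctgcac
*Mepe*: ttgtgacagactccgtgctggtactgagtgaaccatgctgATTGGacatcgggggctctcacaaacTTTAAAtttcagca

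In each of the 4 stretches, 21 bases stood between the motifs. ATTGG began at position -54 from the RefSeq start in *Ibsp*, -46 in *Spp1*, -57 in *Dmp1* and -21 in *Mepe*, and the second motif began at -28, -20, -31 and 6 in the same order, so that in *Mepe* it lay after the annotated start. In *Ibsp* the stretch precedes the RefSeq start but falls within the first exon of the GENCODE transcript, whose start lies further upstream. Outside the motifs, any 2 of the stretches were identical at 22 to 29 of 69 bases. The other start of *Spp1* (104436192) and the other start of *Dmp1* (104197575) lacked the pair. Of all 32851 RefSeq windows, 0.0518% held ATTGG followed after 21 bases by TTTAAA or TTTATA on the + strand of the gene (17 windows of 13 genes), and 0.737% held the pair at any distance from 10 to 45 bases. The 9 other genes included *Sost*, which encodes the osteocyte protein sclerostin and had a mean of 0.537 FPKM here, and *Mbd3* (mean 39.3 FPKM). The distance was noticed in the members' sequences before it was counted in the other windows, so the shares are a description.

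Single motifs were common. Of all windows, 33.9% held ATTGG in the 250 bases before the start on either strand (it reads CCAAT on the reverse strand), 12.1% held TTTAAA, which reads the same on each strand, and 12.4% held TTTATA, which reads TATAAA on the reverse strand. The RUNX motif TGTGGT, which reads ACCACA on the reverse strand and was found in 14.1% of windows, was present for *Spp1* at -128, for *Dmp1* at -164 and for *Mepe* at -118 and -80. The E-box CACGTG, found in 6.02% of windows, was present only before the upstream start of *Dmp1*, at 2 positions, the nearer at -44. A match describes the letters of a window, and binding was not measured.

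The libraries held an estimated 4535000 to 7755000 mapped reads and 16646 to 19698 genes above 0. Type I collagen, which defines the sorted cells, was near the top of every library, with *Col1a1* ranked 2 in 5 libraries and 3 in replicate 3 of day 14. The 7 OB markers (*Col1a1*, *Col1a2*, *Runx2*, *Sp7*, *Alpl*, *Dlx5* and *Bglap2*) were above 0 in all 6 libraries, and *Ptprc*, which encodes CD45, lay between 0.134 and 2.99 FPKM. Replicate 2 of day 14 stood apart from the other samples of its day. The 11 chondrocyte markers, each of which was highest there among the day 14 libraries, summed to 1105 FPKM, against 117 and 74.0 in replicates 1 and 3 and 429 to 859 on day 10. *Col2a1* made up 688 of the 1105 FPKM, and 5 of the 11 markers (*Col9a1*, *Col9a2*, *Col9a3*, *Col11a2* and *Matn1*) were higher still in replicate 1 of day 10. The 9 myeloid markers went the other way, with 20.2 FPKM in replicate 2 of day 14, 262 and 615 in replicates 1 and 3 and 36.1 to 161 on day 10. The fold changes of the members and the counts of the main gene lists are therefore also given without that library. For the gene lists this was chosen after the data were seen.

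The SIBLING genes spanned the whole range of expression in these OBs. *Ibsp* and *Spp1* were among the most abundant transcripts, *Dmp1* was high, *Mepe* was low and *Dspp* was at the limit of detection. The members summed to 7.35, 5.45 and 3.20% of all FPKM in replicates 1 to 3 of day 10 and to 1.73, 5.39 and 0.775% in replicates 1 to 3 of day 14, and *Ibsp* and *Spp1* together made up 96.4 to 98.9% of the members' FPKM. *Spp1* exceeded *Dmp1*, *Dmp1* exceeded *Mepe* and *Mepe* exceeded *Dspp* in all 6 libraries, with no overlap between the ranges of neighbours. The order of *Ibsp* and *Spp1* was not fixed: *Ibsp* was the higher in 4 libraries, and *Spp1* in replicates 1 and 3 of day 14.

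**Figure D1:**
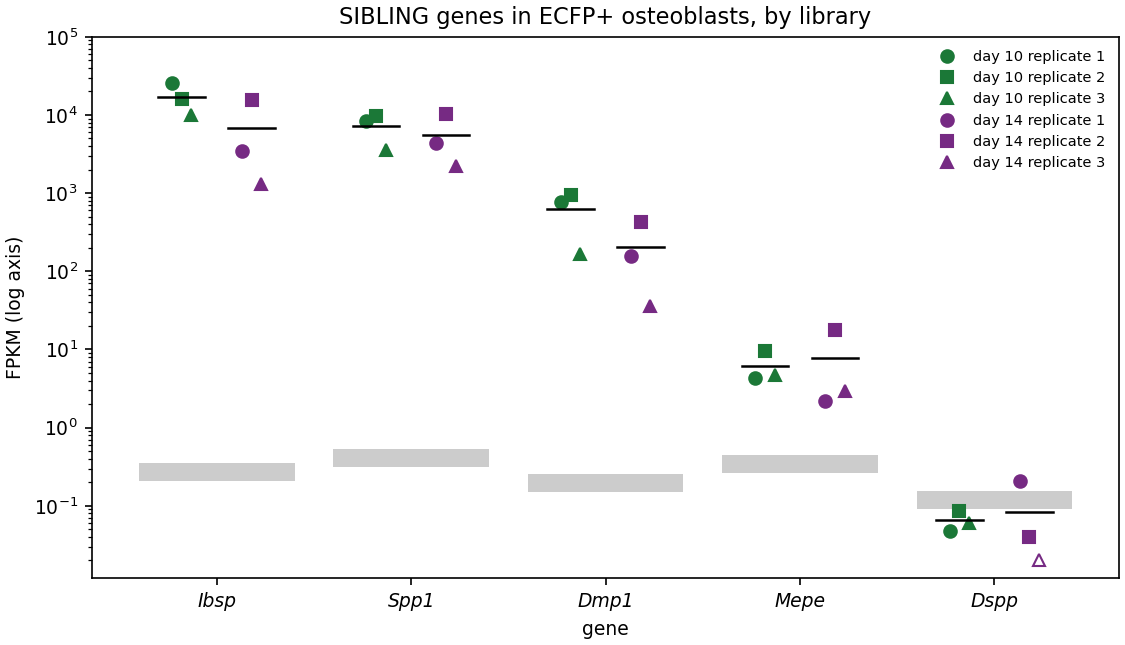
FPKM (log axis) of the 5 SIBLING genes in each library of day 10 (green) and day 14 (purple). Black lines are means of 3 libraries, grey bands show the FPKM that 3 reads would give across the libraries, and the open triangle marks *Dspp* listed at 0; only *Dspp* lies at the band, and replicate 2 of day 14 (purple square) is the highest of its day for the other 4 genes.

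*Ibsp* had 25254, 15910.0 and 10072 FPKM in replicates 1 to 3 of day 10 and 3460, 15632 and 1293 FPKM in replicates 1 to 3 of day 14. Replicate 2 of day 14 reached the middle of the day 10 range, whereas replicates 1 and 3 lay below every day 10 library. The mean was 17079 ± 7658 FPKM (SD, n = 3) on day 10 and 6795 ± 7729 FPKM (SD, n = 3) on day 14. The log2 fold change, computed on FPKM + 0.1 as day 14 against day 10, was -1.95 (SE 0.88, 95% confidence interval -3.98 to 0.07), with an adjusted p of 0.517 from limma. The rank of *Ibsp* among all genes was 3, 5 and 5 on day 10 and 11, 3 and 32 on day 14. At an estimated 16981 to 229866 reads per library, the spread between replicates, not counting error, set the precision.

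*Spp1* had 8243, 9663 and 3583 FPKM on day 10 and 4397, 10176 and 2229.7 FPKM on day 14, in the order of replicates 1 to 3. The days overlapped, and the highest and the lowest of the 6 values were both from day 14. The means were 7163 ± 3180 and 5601 ± 4107 FPKM (SD, n = 3 each), the log2 fold change was -0.51 (SE 0.65, 95% confidence interval -1.998 to 0.99), and the adjusted p from limma was 0.862. *Spp1* ranked 7, 6 and 10 on day 10 and 10, 6 and 15 on day 14.

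*Dmp1* had 780.3, 948.9 and 168 FPKM on day 10 and 158, 423 and 36.1 FPKM on day 14. Replicate 3 was the lowest of each day, and replicate 2 of day 14 lay above replicate 3 of day 10, so the days overlapped. The log2 fold change was -1.89 (SE 0.91, 95% confidence interval -3.98 to 0.19), with an adjusted p of 0.541 from limma. Within a day the highest library exceeded the lowest 5.64 times on day 10 and 11.7 times on day 14. Its rank went from 34 in replicate 2 of day 10 to 1730 in replicate 3 of day 14.

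*Mepe* had 4.29, 9.61 and 4.70 FPKM on day 10 and 2.22, 17.9 and 2.97 FPKM on day 14, from an estimated 15 to 157 reads per library. Replicate 2 was the highest of each day, and the library with the most *Mepe* and the library with the least were both from day 14. The log2 fold change was -0.22 (SE 0.71, 95% confidence interval -1.85 to 1.41), with an adjusted p of 0.958 from limma.

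*Dspp* had 0.0483, 0.0860 and 0.0608 FPKM on day 10 and 0.207, 0.0399 and 0 FPKM on day 14. These values correspond to an estimated 1, 2 and 2 reads on day 10 and to 4, 1 and 0 reads on day 14. The limit that a count of 0 allows, 3 reads, lay between 0.0914 and 0.156 FPKM, and replicate 1 of day 14 alone exceeded it. *Dspp* did not pass the filter of a mean of 0.1 FPKM, so it was not tested, and a difference between days was not detectable at this depth. Limits of this kind cover counting error only, since reads of amplified cDNA are not independent molecules.

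Of the 4 members tested, 0 had an adjusted p under 0.05 from limma, against 0.0154% of all 19526 genes tested (3 genes). With an unadjusted p under 0.05 there were also 0 of the 4 members, against 1954 of the 19526 genes. *Ibsp* and *Dmp1* were over 2-fold lower on day 14, as were 8.39% of all genes tested, but neither belonged to the 2.04% that were over 2-fold lower with an unadjusted p under 0.05. The days did not overlap in 0 of the 4 members, against 14.3% of all genes tested. The exact two-sided permutation test, which cannot go below p = 0.1 with 3 against 3 samples, gave p = 0.2 for *Ibsp* and *Dmp1*, p = 0.7 for *Spp1* and p = 0.8 for *Mepe*. In bulk RNA, fewer cells that express a gene and less of its RNA per cell cannot be told apart.

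The comparisons moved with single libraries. Replicate 2 of day 14 was the highest of its day for all 4 members tested. Without it, *Ibsp*, *Dmp1* and *Mepe* were lower in both remaining day 14 libraries than in every day 10 library, while *Spp1* still overlapped. Thus 3 of 4 members had non-overlapping days, against 28.5% of all genes tested in the same 5 libraries. For *Dmp1* this rested on 158 FPKM in replicate 1 of day 14 against 168 FPKM in replicate 3 of day 10. For *Mepe* it rested on an estimated 15 and 31 reads on day 14, against 31 to 78 on day 10. The log2 fold changes without that library were -2.91 for *Ibsp*, -2.72 for *Dmp1*, -1.14 for *Mepe* and -1.07 for *Spp1*, and the adjusted p from limma was 0.113, 0.205, 0.253 and 0.515, so that no member passed 0.05, as 0.386% of all genes did. *Ibsp*, *Dmp1* and *Mepe* were then over 2-fold lower with an unadjusted p under 0.05, as were 2.89% of all genes. Without replicate 3 of day 14 instead, the values were -1.12 for *Ibsp*, -0.95 for *Dmp1*, 0.14 for *Mepe* and 0.023 for *Spp1*. Without replicate 3 of day 10, the days of *Ibsp* and *Dmp1* did not overlap either, 2 of 4 members against 25.6% of all genes tested, with log2 fold changes of -2.28 and -2.68 and adjusted p of 0.528 and 0.376 from limma. For *Ibsp* this rested on 15910 FPKM in replicate 2 of day 10 against 15632 FPKM in replicate 2 of day 14. The cartilage gene *Col2a1*, which encodes the main collagen of cartilage, had 688 FPKM in replicate 2 of day 14, against 12.1 and 8.75 FPKM in replicates 1 and 3 and 189 to 373 FPKM on day 10. *Col10a1*, a gene of hypertrophic cartilage, had 67.4 FPKM in replicate 2, against 2.99 and 0.194 FPKM in replicates 1 and 3 and 13.8 to 26.1 FPKM on day 10. The other markers did not all exceed day 10 in this way: *Col11a2* had 136 FPKM in replicate 2 of day 14 and 101 to 294 FPKM on day 10. *Ibsp* and *Spp1* are also made by hypertrophic chondrocytes, and the part of such cells in the members' levels was not tested.

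Ratios of FPKM + 0.1 between members within a library depend little on scaling between libraries. The comparison used exact two-sided permutation tests of 10 ratios, 6 between members and 4 to *Col1a1*, and *Dspp* was left out because of its read counts. With 3 against 3 samples none of these exact permutation tests could reach p = 0.05.

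*Ibsp* to *Spp1* stood at 3.06, 1.65 and 2.81 in replicates 1 to 3 of day 10 and at 0.787, 1.54 and 0.580 in replicates 1 to 3 of day 14. Every day 14 library lay below every day 10 library, though replicate 2 of each day came close, and the mean log2 ratio differed by -1.45 (exact permutation p = 0.1). *Ibsp* to *Mepe* stood at 5752, 1638 and 2098 on day 10 and at 1488, 866 and 421 on day 14, again without overlap, with a difference of -1.73 on the log2 scale (exact permutation p = 0.1). Here replicate 2 of day 10 (1638) and replicate 1 of day 14 (1488) came close, and the latter rested on an estimated 15 *Mepe* reads. Among the other genes, 8.3% likewise had a higher ratio to *Ibsp* in every day 14 library than in every day 10 library. *Spp1* and *Mepe* belonged to them, and *Dmp1* did not.

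*Spp1* to *Dmp1* stood at 10.6, 10.2 and 21.3 on day 10 and at 27.8, 24.0 and 61.6 on day 14. The days did not overlap, and replicate 3 was the highest of each day. The mean log2 ratio was 1.39 higher on day 14 (exact permutation p = 0.1), and 2.95% of the other genes had a higher ratio to *Dmp1* in every day 14 library than in every day 10 library. *Spp1* was the only one of *Ibsp*, *Spp1* and *Mepe* to do so.

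*Ibsp* and *Dmp1*, by contrast, kept no day order relative to each other. Their ratio overlapped between days, with a mean log2 difference of -0.06 (exact permutation p = 1.0). *Spp1* to *Mepe* differed by -0.28 (exact permutation p = 0.6) and *Dmp1* to *Mepe* by -1.67 (exact permutation p = 0.2), with overlapping days. Relative to *Col1a1*, the mean log2 ratio differed by -1.36 for *Ibsp* (exact permutation p = 0.3), 0.09 for *Spp1* (exact permutation p = 1.0), -1.30 for *Dmp1* (exact permutation p = 0.3) and 0.37 for *Mepe* (exact permutation p = 0.9), and all 4 overlapped between days.

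**Figure D2:**
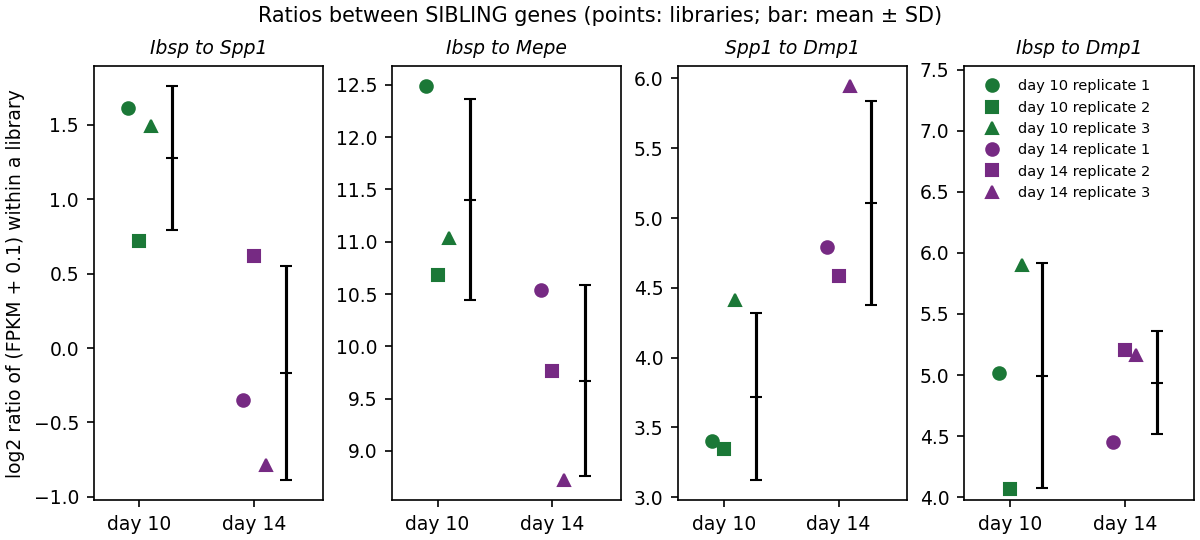
Log2 ratio of FPKM + 0.1 between pairs of SIBLING genes within each library; points are libraries and bars are the mean ± SD of 3, each panel on its own axis. *Ibsp* to *Spp1* and *Ibsp* to *Mepe* were lower and *Spp1* to *Dmp1* was higher in every day 14 library (exact permutation p = 0.1 each), while *Ibsp* to *Dmp1* overlapped. The nearest day 10 and day 14 ratios were 1.65 and 1.54 for *Ibsp* to *Spp1*, and 1638 and 1488 for *Ibsp* to *Mepe*.

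SIBLING transcription in bone depends on RUNX2 and SP7, which direct OB differentiation, and on homeodomain and other factors that act on these promoters. Of 11 such regulators tested, 4 were over 2-fold lower on day 14 with an unadjusted p under 0.05 and 0 were higher, 0 had an adjusted p under 0.05, and the median log2 fold change was -0.83, against -0.0427 over all genes tested. Of all genes tested, 2.04% were lower and 1.79% higher by the same rule. Every day 14 library lay below every day 10 library in 3 of the 11 and above in 1, against 6.67% and 7.59% of all genes. *Sp7* had 73.7, 51.1 and 40.1 FPKM on day 10 and 9.79, 27.9 and 4.09 FPKM on day 14. *Dlx3* had 14.9, 8.04 and 5.03 FPKM on day 10 and 1.55, 2.88 and 0.590 FPKM on day 14. In both genes, and in *Mef2c*, every day 14 library lay below every day 10 library. The log2 fold changes were -2.34 for *Sp7* (adjusted p = 0.309 from limma), -2.51 for *Dlx3* (0.298) and -1.49 for *Mef2c* (0.360). *Dlx5*, the other of these 4, was -1.91 (0.460) and reached 9.84 FPKM in replicate 2 of day 14, within the day 10 range. *Runx2* was -0.83 (0.528), *Vdr*, the vitamin D receptor through which *Spp1* is induced, was -0.83 (0.697), and *Cbfb*, the partner of RUNX2, was 0.06 (0.953). *Atf4* was 0.28 (0.607), and its days did not overlap. Without replicate 2 of day 14, 6 of the 11 were over 2-fold lower with an unadjusted p under 0.05 and 0 were higher, against 2.89% and 3.85% of all genes. In the same setting, *Sp7* (-3.05, adjusted p = 0.0329) and *Dlx5* (-2.97, adjusted p = 0.0102) passed an adjusted p of 0.05 from limma, as did 0.386% of all genes. The library left out held the highest day 14 value of both genes, so its removal by itself lowers their day 14 mean. As the setting was chosen for the lists after the data were seen, these values are a description.

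SIBLING proteins are phosphorylated and cut after they are made. Of 16 processing genes tested, 2 were over 2-fold higher and 1 over 2-fold lower with an unadjusted p under 0.05, against 1.79% and 2.04% of all genes, 0 had an adjusted p under 0.05, and the median log2 fold change was 0.39. *Fam20c*, the kinase that phosphorylates the serines of SIBLING proteins, had 46.4, 52.9 and 13.3 FPKM on day 10 and 14.5, 46.0 and 7.55 FPKM on day 14, with a log2 fold change of -0.89 (adjusted p = 0.744 from limma). Its 3 lowest libraries were replicate 3 of day 10 and replicates 1 and 3 of day 14. These were also the lowest of *Spp1*, *Ibsp*, *Dmp1*, *Runx2* and *Col1a1*, so the match is not particular to *Fam20c* and *Spp1*. *Fam20a*, a pseudokinase that assists it, had 8.66, 11.1 and 17.6 FPKM on day 10 and 34.4, 22.0 and 24.5 FPKM on day 14, with no overlap and a log2 fold change of 1.15 (adjusted p = 0.305 from limma). *Bmp1* and *Tll1*, proteases that cleave DMP1 and DSPP, had log2 fold changes of -0.19 and 0.62, with 0.794 and 0.595 as adjusted p from limma.

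*Phex*, the endopeptidase that degrades the acidic peptides of MEPE and osteopontin, had 20.6, 29.99 and 6.48 FPKM on day 10 and 3.75, 10.8 and 1.49 FPKM on day 14. The order of libraries within each day was that of *Dmp1*, and *Spp1*, *Fam20c* and *Col1a1* showed it too. Its log2 fold change was -1.98 (adjusted p = 0.432 from limma), and the days overlapped. *Tgm2*, which crosslinks osteopontin, had 11.1, 21.5 and 9.06 FPKM on day 10 and 53.1, 34.3 and 46.3 FPKM on day 14. Every day 14 library exceeded every day 10 library, with a log2 fold change of 1.76 (adjusted p = 0.268 from limma). *Alpl*, the phosphatase that removes the mineralization inhibitor pyrophosphate, was -1.29 (adjusted p = 0.549 from limma) and overlapped between days. Without replicate 2 of day 14, which held its highest day 14 value (1300 FPKM), *Alpl* was -2.13 (adjusted p = 0.0326 from limma). By the rule of 2-fold and an unadjusted p under 0.05, the processing genes then counted 2 higher and 3 lower, against 3.85% and 2.89% of all genes. The matrix metalloproteinases that cut osteopontin were listed from 7.73 FPKM (*Mmp9*, replicate 1 of day 10) to 1468 FPKM (*Mmp2*, replicate 2 of day 14), and *Mmp2* and *Mmp14* were among the 6 of 16 processing genes that were higher in every day 14 library, against 7.59% of all genes.

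SIBLING proteins reach cells through integrins and the hyaluronan receptor CD44. Of 10 receptor genes tested, 2 were over 2-fold higher with an unadjusted p under 0.05 and 0 lower, against 1.79% and 2.04% of all genes, 0 had an adjusted p under 0.05, and the median log2 fold change was 0.51. *Itgb5*, an integrin subunit that pairs with *Itgav* to bind osteopontin, had 71.5, 90.3 and 106 FPKM on day 10 and 229, 143 and 193 FPKM on day 14, with a log2 fold change of 1.07 (adjusted p = 0.292 from limma). *Itga9*, whose product binds osteopontin after its cleavage, was 1.05 (adjusted p = 0.360 from limma), and *Itga8* was 1.05 (adjusted p = 0.548 from limma) at 0.196 to 0.816 FPKM. The days did not overlap in these 3 genes of 10, against 7.59% of all genes that were higher in every day 14 library. Without replicate 2 of day 14, 2 receptor genes were again over 2-fold higher by the same rule and 0 lower, against 3.85% and 2.89% of all genes. *Itgav* was 0.40 and *Itgb3*, the other subunit of the classical osteopontin receptor, was 0.56, with adjusted p of 0.593 and 0.600 from limma, and *Cd44* was 0.62 (adjusted p = 0.535 from limma). These overlapped between days.

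**Figure D3:**
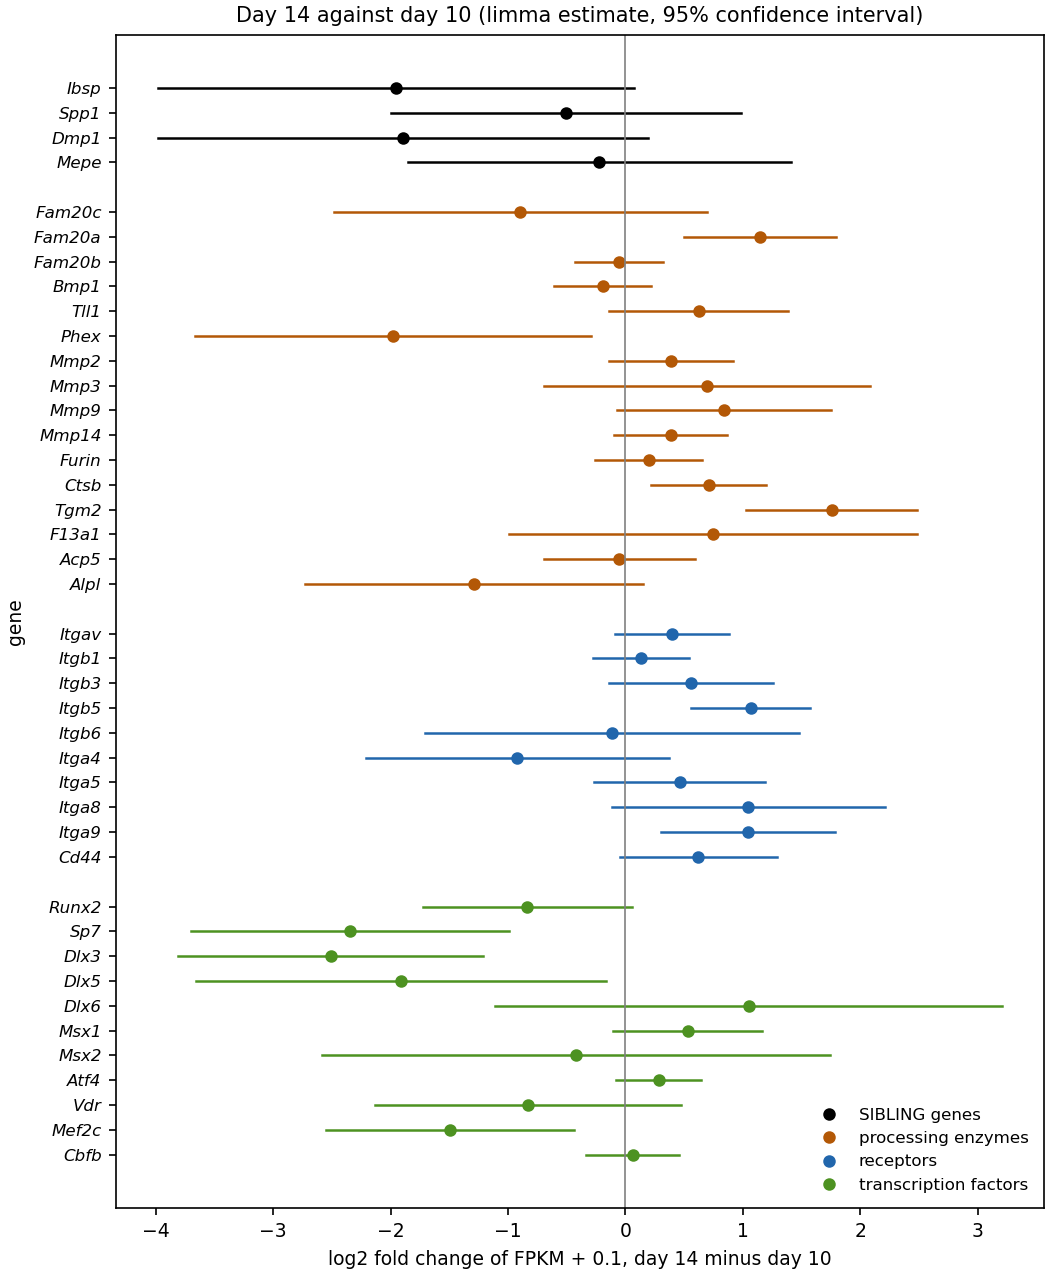
Log2 fold change of FPKM + 0.1, day 14 against day 10, with its 95% confidence interval (limma, 3 against 3 libraries) for the 4 tested SIBLING genes and the genes of 3 lists. *Ibsp* (-1.95) and *Dmp1* (-1.89) have intervals that include 0, the transcription factors *Sp7* (-2.34) and *Dlx3* (-2.51) lie at the low end, and *Tgm2* (1.76) is the highest; 0 genes shown had an adjusted p under 0.05.

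The rest of the bone matrix differed among its genes. Of 9 other matrix genes tested, 1 was over 2-fold higher with an unadjusted p under 0.05, 0 were lower, against 1.79% and 2.04% of all genes, and 0 had an adjusted p under 0.05 (median log2 fold change -0.42). Without replicate 2 of day 14, 1 was higher and 2 were lower by the same rule, against 3.85% and 2.89% of all genes. *Mgp*, which encodes matrix Gla protein, an inhibitor of calcification, had 466, 441 and 421 FPKM on day 10 and 1083, 1270.5 and 1351 FPKM on day 14, and its log2 fold change was 1.47 (adjusted p = 0.140 from limma). Its days lay far apart, and replicate 2 of day 14 was with the other day 14 libraries. *Bglap2* (-1.69) and *Bglap* (-1.22), copies of the osteocalcin gene whose reads may have been split between them, overlapped between days, with adjusted p of 0.595 and 0.705 from limma. *Col1a1* was -0.60 and *Sparc*, an evolutionary relative of the SIBLING genes, was -0.23, with adjusted p of 0.839 and 0.939 from limma. Of the other relatives, the enamel genes *Enam*, *Ambn*, *Amelx*, *Amtn* and *Odam* were at most 2.43 FPKM in any library. Of 6 relatives tested, 1 was higher (*Sparcl1*) and 1 lower (*Ambn*) over 2-fold with an unadjusted p under 0.05, against 1.79% and 2.04% of all genes (median -0.39).

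Genes around the cluster were expressed at their own levels. *Sparcl1*, which encodes a matricellular protein, lies before *Dspp* on the opposite strand and had 0.912, 0.874 and 0.662 FPKM on day 10 and 2.33, 1.74 and 3.65 FPKM on day 14, with no overlap between days and a log2 fold change of 1.49 (adjusted p = 0.310 from limma). *Pkd2*, which encodes polycystin-2 and follows *Spp1*, stayed between 38.4 and 51.8 FPKM, and *Nudt9* lay between 25.2 and 39.8 FPKM. *Hsd17b11* lay between 4.22 and 7.49 FPKM and *Hsd17b13* reached at most 0.670 FPKM. Within the cluster, *Ibsp* exceeded its neighbour *Mepe*, 13.86 kb away, 421 to 5752 times on the scale of FPKM + 0.1.

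**Figure D4:**
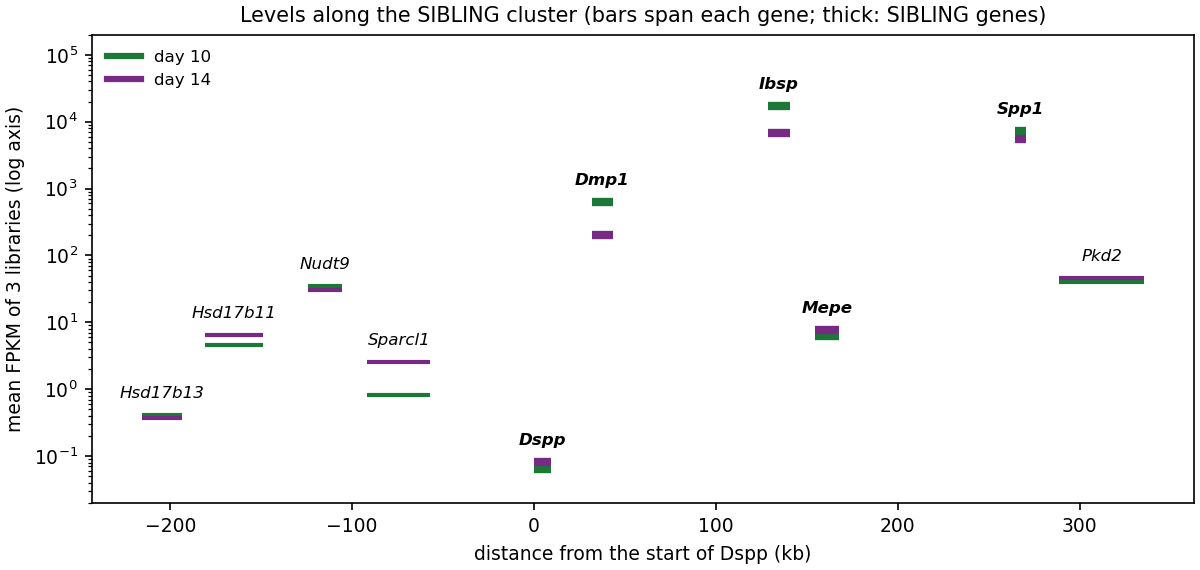
Mean FPKM (log axis) of 3 libraries on day 10 (green) and day 14 (purple) for the genes of the SIBLING cluster (thick bars) and its neighbours, each bar spanning the gene by distance from the start of *Dspp* in kb. *Ibsp* (17079 FPKM on day 10) lies between *Dmp1* (632) and *Mepe* (6.20), and *Dspp* is the lowest.

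*Dmp1* and *Mepe* are also used to mark osteocytes. Among 8 further osteocyte markers tested, 4 were over 2-fold lower on day 14 with an unadjusted p under 0.05 (*Phex*, *Dkk1*, *Irx5* and *Ptprz1*), 0 were higher, against 2.04% and 1.79% of all genes, and 0 had an adjusted p under 0.05 (median log2 fold change -1.14). Without replicate 2 of day 14 the counts were again 4 and 0, against 2.89% and 3.85% of all genes. *Capg*, on the same list, was higher in every day 14 library (log2 fold change 0.52, adjusted p = 0.400 from limma). *Sost*, made by mature osteocytes, lay between 0.118 and 1.24 FPKM, and *Fgf23*, the phosphate hormone that DMP1 and PHEX restrain, lay between 0 and 0.681 FPKM. *Pdpn*, an early osteocyte marker, had a log2 fold change of 0.61 (adjusted p = 0.491 from limma). Of the 7 OB markers, 2 (*Sp7* and *Dlx5*) were over 2-fold lower with an unadjusted p under 0.05, against 2.04% of all genes. The median log2 fold change of the 7 was -1.29. Without replicate 2 of day 14, 5 were lower by the same rule, against 2.89% of all genes. *Spp1* is also made by osteoclasts and macrophages. Of the 8 osteoclast markers, *Ctsk* made up most of the sum of 447 to 676 FPKM, while *Acp5*, which encodes TRAP, lay between 18.3 and 37.7 FPKM, *Mmp9* between 7.73 and 35.9 FPKM, and *Calcr*, *Oscar*, *Ocstamp*, *Dcstamp* and *Atp6v0d2* were at most 2.61 FPKM, and the sum was 447 to 490 FPKM on day 10 and 628 to 676 FPKM on day 14. The sum of the myeloid markers was highest in replicate 3 of day 14 (615 FPKM, with *Lyz2* at 454 FPKM). *Ptprc* and *Adgre1*, on the same list, were higher in replicate 1 of day 14. The 6 endothelial markers summed to 1.22 to 6.03 FPKM. The part of these cells in the members' levels was not tested.

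The genes whose log2 levels followed each member most closely over the 6 libraries were sought among 4602 genes with a mean of at least 10 FPKM. For *Ibsp* they were *Pth1r*, the receptor of parathyroid hormone (Pearson r = 0.998), *C130050O18Rik* (0.996), *Gm15772* (0.994), *Cdh2*, which encodes N-cadherin (0.994), and *Ckb*, a creatine kinase (0.993). *Pth1r* had 248, 166 and 135 FPKM on day 10 and 72.7, 173 and 35.6 FPKM on day 14, with the same low libraries as *Ibsp*. For *Dmp1* they were *Emid1* (0.994), *Runx2* (0.987), *Scd1* (0.986), *Phex* (0.984) and *Nrp2* (0.984). *Spp1* was followed by *Arl4d* (0.994), *Fam189a2* (0.994), its kinase *Fam20c* (0.988), *Pdk4* (0.977) and *Appbp2* (0.976). *Mepe* was followed by *Abhd12* (0.994), *Dmtf1* (0.987), *Slc38a2* (0.983), *Atxn2l* (0.981) and the ribosomal protein gene *Rpl8* (0.978), which all varied much less than *Mepe* itself. *Gm15772*, at 62.6 to 79.6 FPKM, and *Appbp2*, at 27.9 to 32.4 FPKM, likewise varied much less than *Ibsp* and *Spp1*, which they followed. The number of genes with an r over 0.95 was 84 for *Ibsp*, 50 for *Dmp1*, 19 for *Spp1* and 17 for *Mepe*. These correlations are a description without a test, over 6 libraries of 2 days that differ in depth and in the levels of cartilage and myeloid transcripts, and a gene and a member share these differences.

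**Figure D5:**
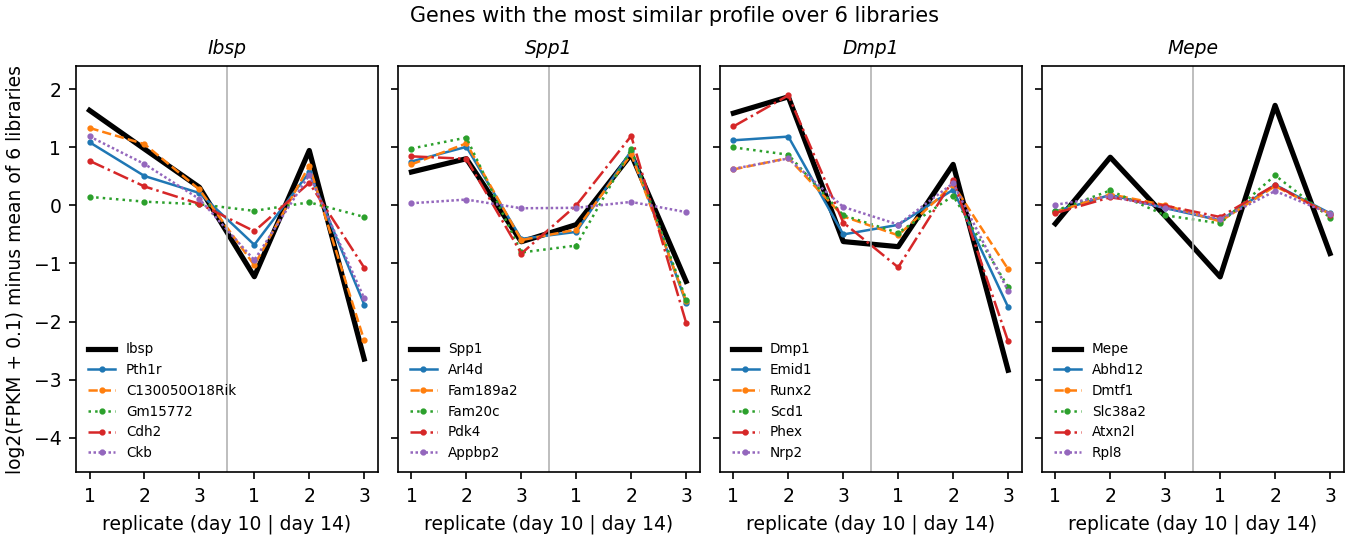
Log2(FPKM + 0.1) minus its mean over the 6 libraries for 4 SIBLING genes (black) and the 5 genes with the highest Pearson r to each; lines only join the libraries of a gene, since replicates have no order. *Pth1r* follows *Ibsp* (r = 0.998) and *Emid1* follows *Dmp1* (r = 0.994). The genes nearest to *Mepe* move over a narrower range than *Mepe*, as do *Gm15772* beside *Ibsp* and *Appbp2* beside *Spp1*.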

How the data were processed

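RNA of ECFP+ OBs was amplified with the SMART-Seq Ultra Low Input kit and sequenced as 75-base single-end reads. The authors used TopHat 2.0.13 for mapping (genome build mm10), with Bowtie2 2.2.3 as its aligner and SAMtools 0.1.19, and deposited FPKM per gene from Cufflinks 2.2.1. The annotation and the treatment of reads that map to several genes, which affects copies such as *Bglap* and *Bglap2*, are not given in the sources used here.

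Here log2(FPKM + 0.1), a scale that understates the change of low genes, was compared between days with limma 3.58.1 (R 4.3.3; mean-variance trend, day as the only factor) over the 19526 genes with a mean above 0.1 FPKM, with Benjamini-Hochberg adjustment over all of them, and the fit was tested on simulated data. The p-values from limma set the difference between days against the spread between samples of a day. Whether that spread is one between animals is not known, since the animals per sample are not given. Ratios and single genes were compared by exact permutation tests. Reads were estimated from the steps between low FPKM values, assuming 200-base fragments; 74.0 to 77.1% of the values up to 0.3 FPKM lay within 0.1 of a whole read, so no count test was run. In 1 file, 25 symbols had been turned into dates and were restored by row order.

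Named genes were the 5 members, lists of regulators, processing enzymes, receptors, matrix genes, relatives, neighbours and cell type markers (102 genes, with 1 further listed gene not reported here, *Adgre1* listed as *Emr1*), and the 5 genes most correlated with each member above 0 in every library. *Ppm1k* and *Abcg2*, listed as neighbours, lie on chromosome 6 and were left out. The members and lists were chosen with earlier results of these data known. Sequences of 4 members were matched by symbol in RefSeq. Alternatives were other pseudocounts, filters and scalings, a replicate block, no mean-variance trend and each sample left out in turn. Leaving out replicate 2 of day 14 was extended to the gene lists after the data were seen.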

Additional observations from a re-analysis of the deposited data

How the results depend on the processing

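No alternative brought a member to an adjusted p under 0.05 from limma, and the log2 fold changes of *Ibsp* (-2.91 to -1.12 with 1 sample left out, -2.09 to -1.95 otherwise) and *Dmp1* (-2.72 to -0.95 and -2.04 to -1.88) kept their sign in all of them. That of *Spp1* ranged from -1.07 to 0.023 and that of *Mepe* from -1.14 to 0.34 with 1 sample left out: *Spp1* changed sign without replicate 3 of day 14 (0.023), and *Mepe* without replicate 2 of day 10 (0.14), replicate 1 of day 14 (0.34) or replicate 3 of day 14 (0.14). Of 90 alternative values of the ratios, 7 changed sign, all with 1 sample left out and all of ratios whose days overlapped: *Spp1* to *Col1a1* (-0.31 to 0.50), *Mepe* to *Col1a1* (-0.38 to 0.89), *Ibsp* to *Dmp1* (-0.52 to 0.40) and *Spp1* to *Mepe* (-0.80 to 0.091). The number of genes with an adjusted p under 0.05 was 3, and 3 to 76 with 1 sample left out, the highest without replicate 2 of day 14. The number over 2-fold with an unadjusted p under 0.05 was 748, 363 with a pseudocount of 1, 476 with a mean FPKM above 1, and 440 to 1594 with 1 sample left out, the highest without replicate 1 of day 14. The number with non-overlapping days was 2784, and 3583 to 6048 with 1 sample left out, where fewer samples make non-overlap more frequent. Rescaling without genes over 1% of a library moved the median log2 fold change of all genes from -0.0427 to -0.186, the split of genes over 2-fold with an unadjusted p under 0.05 from 350 higher and 398 lower to 254 and 558, and that of genes with non-overlapping days from 1482 and 1302 to 910 and 2395; without replicate 1 of day 14 the first split was 320 and 1274. *Dspp* gave no fold change or ratio under any alternative, because of its 0 to 4 estimated reads.

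The replicate numbers are shared by the days, and the titles name no pairing. Over the 19526 genes tested, samples with the same number did not deviate together (r of 0.058, -0.00584 and 0.0887 for replicates 1 to 3). *Spp1*, *Dmp1* and *Mepe* each ranked their replicates in the same order on both days, and *Ibsp* did not. The share of all genes that did so was not counted. *Spp1* and *Dmp1* had 1 order in common, which *Col1a1*, *Fam20c* and *Phex* also showed, so the members are not independent of each other here. The replicate block lowered the SE from 0.88 to 0.75 for *Ibsp*, 0.65 to 0.48 for *Spp1*, 0.91 to 0.26 for *Dmp1* and 0.71 to 0.37 for *Mepe*. Neither the titles nor these values settle whether same-numbered samples belong together. With the replicate block, the adjusted p from limma was 0.416 for *Ibsp*, 0.774 for *Spp1*, 0.140 for *Dmp1* and 0.891 for *Mepe*. The unadjusted p from limma was 0.0374, 0.330, 0.000221 and 0.569 in the same order. Of all 19526 genes, 2130 had an unadjusted p under 0.05 from limma in this setting, 839 of them over 2-fold, and 2 had an adjusted p under 0.05. These values hold only if same-numbered samples are pairs, which the titles do not say.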
